A study of Mus musculus with 24 samples.

Results

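Untreated DN4 thymocytes were compared with untreated DN3b thymocytes, the population that precedes them in the mouse thymus. The comparison used 8 arrays, 4 of each group, from a series of 24 arrays. All cells came from C57BL/6J mice with an intact Il7r gene (Il7r+/+) in 4 independent sorts, and per the labels DN3b cells were Lin-cKit-CD25+CD71hiFSChi and DN4 cells Lin-cKit-CD25-CD71hiFSChi. Every group had 1 h of rest and then 3 h of culture, here without cytokine, so the arrays report cultured cells and not cells fresh from the thymus. How many mice gave cells to a sort is not given in the sources used here. The series' design text also speaks of technical replicates, and the labels do not say which arrays, if any, these are. P-values measure the spread between these 4 sorts, pooled over the untreated DN3a, DN3b and DN4 arrays and moderated across genes. They do not rest on the 4 DN4 minus DN3b differences of a gene alone. Side values come from the 4 untreated DN3a arrays (Lin-cKit-CD25+CD71loFSClo) and from the DN3b and DN4 cultures of the same sorts that received IL7 at 10 ng/ml. RNA was measured on Illumina beadchips, arrays of probe-coated beads. All genes with a named probe whose detection p was under 0.05 on at least 4 arrays were included, which gave 8820 of the 16593 genes with a named probe on the array. Levels are log2 signals after background correction and quantile normalization, and a change is the DN4 level minus the DN3b level within a sort.

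Early thymocytes lack both CD4 and CD8 and are named double negative (DN). At the DN3 stage a rearranged T cell receptor beta chain pairs with the pre-T alpha chain, and together with Notch signals this pre-T cell receptor (pre-TCR) starts beta-selection, in which cells grow, divide and stop rearranging the beta locus. DN3b cells are the large, cycling cells just after this checkpoint. They then lose CD25, as DN4 cells, and go on to express CD8 and CD4 at the double positive (DP) stage, where the alpha locus is rearranged.

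Other cell types were read before the comparison. Transcripts of 9 genes of T lineage identity were detected on 4 of 4 arrays of both groups, with a summed normalized linear signal of 60919 to 65775 in DN3b and 58646 to 64992 in DN4. The granulocyte list of 15 genes stood apart in DN4 cells of sorts 2 and 3. Its summed signal in DN4 was 366, 9372, 8449 and 601 in sorts 1 to 4, against 372, 423, 644 and 361 in DN3b, and 10 of its 15 genes were detected in DN4 of sorts 2 and 3 against 0 in sort 1. S100a8, whose protein is a main cytosolic component of neutrophils, was at 4.45, 12.39, 12.29 and 7.58 in DN4 and at 4.53, 5.81, 7.66 and 4.42 in DN3b. The monocyte and macrophage list followed it, at 221, 506, 613 and 248 in DN4 and 225 to 265 in DN3b, with C1qa, Cd14 and Itgam on 0 of 8 arrays. Ctsg, Retnlg and Mmp8 of the granulocyte list were detected on 0 of the 8 arrays. Of the erythroid list Hba-a1 differed by sort and not by subset. It was at 9.65 and 9.72 in DN3b and DN4 of sort 1 and at 4.72 and 4.51 in sort 4. Klf1 of that list was detected on 2 DN3b and 0 DN4 arrays, at 5.04 to 5.27 in DN3b and 4.79 to 4.97 in DN4. The plot of marker sums shows these lists. Defining genes of B cells (Cd79a, Pax5), NK cells (Ncr1, Eomes), dendritic cells (Itgax, Xcr1) and stroma (Krt5, Foxn1, Col1a1) were detected on 0 of the 8 arrays. Other members of these lists were detected on 8 of 8, namely Cd79b, Prf1, Nkg7, Irf8, H2-Ab1, Bst2 and Pecam1. Ms4a1, Vpreb1, Gzma, H2-Aa, Cd74 and Krt8 were detected on some arrays of each group, and Ebf1, Cd22, Flt3, Siglech and Klrb1c on 1 array each. Cd74 of the dendritic list was on 2 DN3b and 4 DN4 arrays. It was at 5.31, 5.12, 5.03 and 5.50 in DN3b and at 5.88, 6.43, 5.62 and 5.86 in DN4, and did not pass the test. The part of granulocyte RNA in the results below was not tested beyond refits without sorts 2 and 3.

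**Figure D1:**
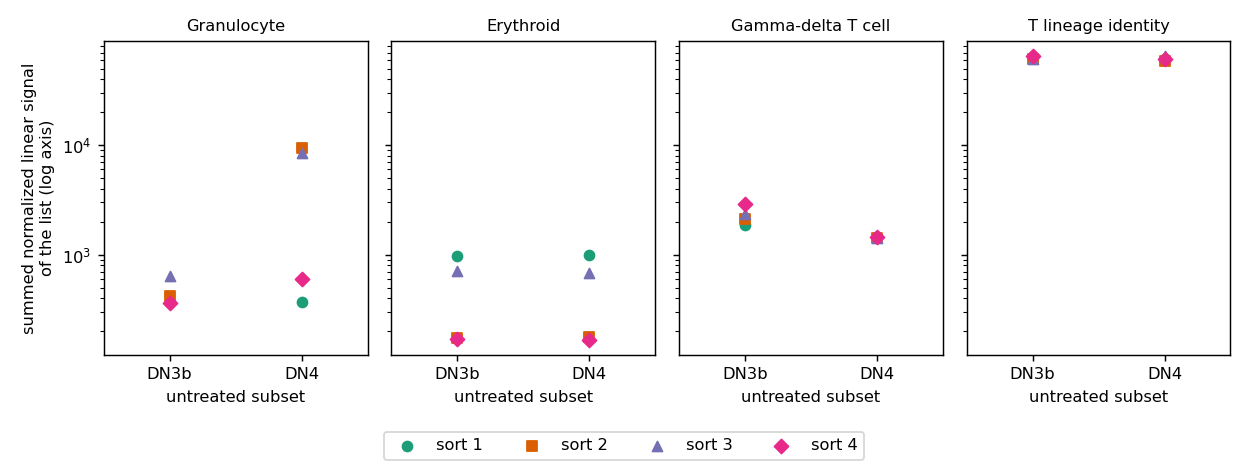
Summed normalized linear signal (log axis, shared by the panels) of 4 marker lists in the untreated DN3b and DN4 arrays, with 1 symbol for each of the 4 sorts. The granulocyte sum reached 9372 and 8449 in DN4 of sorts 2 and 3 and lay between 361 and 644 in DN3b, whereas the T lineage sums of the groups lay within 58646 to 65775.

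Of the 8820 genes, 355 (4.02%) passed an adjusted p of 0.05 in limma with the sorts as blocks. In DN4 cells 128 genes (1.45%) were higher and 227 (2.57%) were lower. Most changes were modest: the median log2 change was 0.58 among the higher and -0.62 among the lower genes, against -0.0075 over all genes, and 17 genes rose and 40 fell at least 2-fold. Within sorts the called genes kept their direction, with 227 of 227 lower genes and 127 of 128 higher genes changed the same way in 4 of 4 sorts. The exception was S100a8, whose change in sort 1 was -0.09. The calls were made from these same sorts, so this agreement was largely set by the selection and is no separate support. The DN3b and DN4 arrays did not overlap for 266 of the 355 genes, where 7.01% of all genes did not overlap (2.87% with DN4 above and 4.14% with DN3b above). The number of calls depended on each sort, with 176, 140, 225 and 110 genes called when sort 1, 2, 3 or 4 was left out, and 166 genes were called without the sort block. All 355 genes kept their direction in each of these refits.

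**Figure D2:**
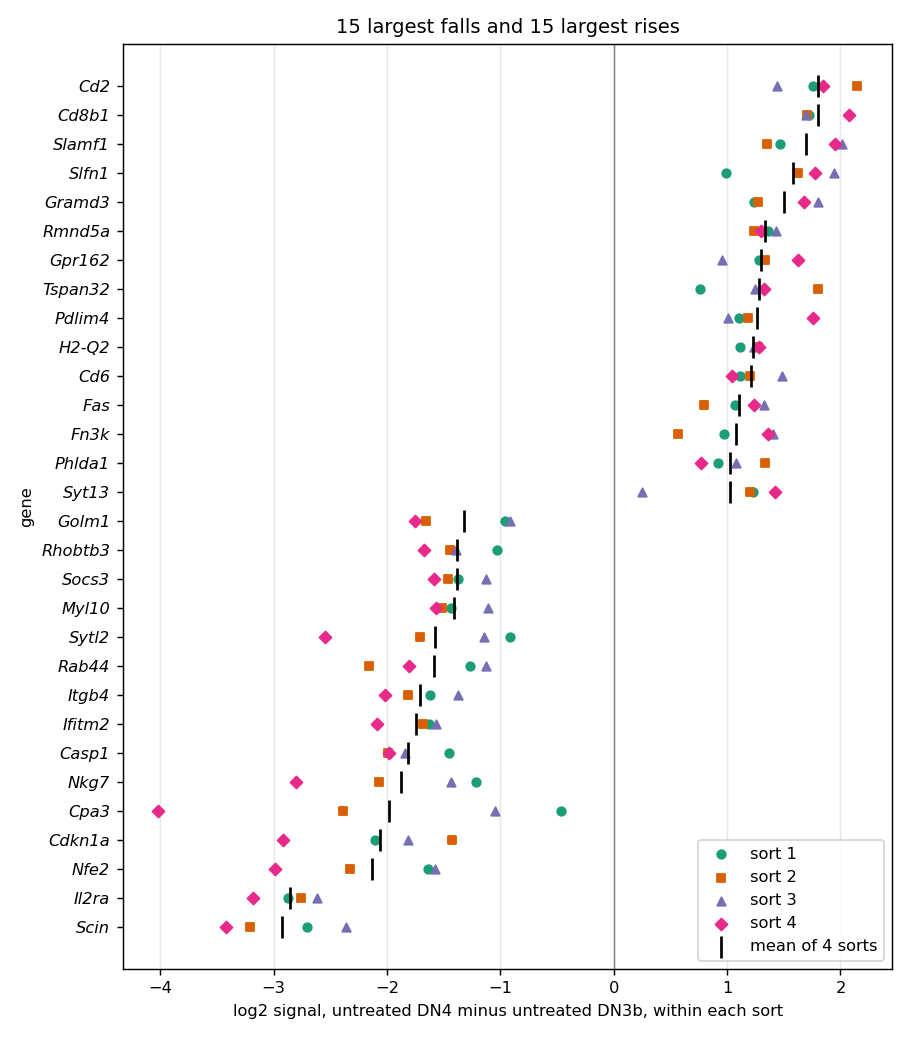
Change in log2 signal from untreated DN3b to untreated DN4 within each of the 4 sorts (symbols) and their mean (bars) for the 15 genes that fell most and the 15 that rose most among called genes that moved one way in 4 of 4 sorts. Scin and Il2ra fell by 2.93 and 2.86 on average and Cd2 and Cd8b1 rose by 1.80 each.

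The genes of the sort gates were read first as a check of the labels. Il2ra encodes CD25, the receptor chain whose loss separates DN4 from DN3b. Its log2 signal was 8.20, 7.74, 7.77 and 8.32 in DN3b and 5.32, 4.97, 5.15 and 5.14 in DN4, where 1 of 4 arrays was above background. The groups lay far apart, with a change of -2.86 ± 0.17 (SE, n = 4 sorts, limma adjusted p = 4.3e-05). This gene was used to sort the cells and its fall is no finding. Tfrc encodes CD71, for which both groups were sorted as high. Its signal was 12.16, 11.94, 11.76 and 11.92 in DN3b and 11.39, 11.10, 11.21 and 11.12 in DN4. It was lower in DN4 in 4 of 4 sorts (1.68-fold, limma adjusted p = 0.0031). Kit had no named probe.

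Of 14 tested genes in the Notch target list 5 were lower in DN4 cells and 0 higher, where 2.57% of all genes fell. The list's median change was -0.32, and 2 of the 14 lay above 0. Il2ra itself is among the 5, and its fall was set by the sort gate, so it carries no weight in this count. Hes1, a transcriptional repressor and a direct Notch target, was at 6.55, 6.93, 6.35 and 6.94 in DN3b and at 5.75, 5.83, 5.31 and 5.31 in DN4. The groups did not overlap, and the 2.21-fold fall (log2 change -1.14 ± 0.14 SE, limma adjusted p = 0.0015) left 2 of 4 DN4 arrays above background. Notch3, which encodes a receptor and is also a Notch target, fell 2.13-fold, from 7.60, 7.52, 7.50 and 7.77 to 6.52, 6.30, 6.84 and 6.37 (limma adjusted p = 0.001). Nrarp, a feedback inhibitor of Notch signalling, was at 8.26, 8.34, 8.12 and 8.18 in DN3b and 7.33, 7.82, 7.62 and 7.35 in DN4. It fell 1.62-fold (limma adjusted p = 0.0075), a call that ended without sort 1 (adjusted p = 0.055) or sort 4 (adjusted p = 0.09). Cdkn1a, which encodes the cell cycle inhibitor p21 and is counted in this list and among the cell cycle genes, fell 4.18-fold (log2 change -2.06 ± 0.20 SE, limma adjusted p = 0.00057). Its DN3b values of 8.27, 8.33, 8.56 and 8.18 lay close together, whereas DN4 was at 6.16, 6.91, 6.74 and 5.27. Dimmer probes of Cdkn1a gave -0.62, which did not pass, and -1.05, which did.

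Of 9 tested genes for Notch receptors and modifiers, Notch3 and Maml1 fell and 0 rose, where 2.57% of all genes fell. Maml1, a coactivator of Notch transcription complexes, was at -0.72 with sorts from -1.21 to -0.01, and its call ended when sort 1, 3 or 4 was left out (adjusted p = 0.19, 0.15 and 0.19). Notch1, the main Notch receptor of early thymocytes, did not pass the test, at 9.73, 9.85, 9.38 and 9.62 in DN3b and 9.95, 9.77, 9.06 and 9.43 in DN4 (log2 change -0.09 ± 0.15 SE, limma adjusted p = 0.80). Ptcra, the pre-T alpha chain and a Notch target, was at -0.16 ± 0.19 SE (limma adjusted p = 0.73), and its groups overlapped. Dtx1, another target, was above background on 1 of 4 DN3b and 0 of 4 DN4 arrays. Myc had a change of 0.01 ± 0.15 SE, with sorts on both sides of 0.

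Of 23 tested genes of the DP stage 7 rose and 0 fell, where 1.45% of all genes rose. The list's median change was 0.30, and 4 of the 23 lay below 0. Cd8b1, the beta chain of the CD8 coreceptor, was at 11.99, 12.21, 12.11 and 11.93 in DN3b and at 13.71, 13.91, 13.81 and 14.00 in DN4. It rose 3.48-fold (log2 change 1.80 ± 0.14 SE, limma adjusted p = 0.00023), and every DN4 array lay above every DN3b array. Cd2, an adhesion receptor of T cells, also rose 3.48-fold, from 5.21, 5.22, 5.99 and 5.49 to 6.97, 7.37, 7.43 and 7.34 (limma adjusted p = 0.00025). It was above background on 2 of 4 DN3b and 4 of 4 DN4 arrays. Slamf1, a signalling receptor of the SLAM family, rose 3.24-fold, from 5.33, 5.30, 4.89 and 4.84 to 6.79, 6.66, 6.90 and 6.79 (limma adjusted p = 0.00016). Its DN3b signals of 4.89 and 4.84 lay below 5.16, the lowest signal above background on any array, so the fold is set partly against background. A dimmer Slamf1 probe, detected on 5 of 24 arrays, gave 0.20 and did not pass. Rmnd5a, a subunit of a ubiquitin ligase complex, rose 2.52-fold with sorts between 1.24 and 1.43. Endou, an endoribonuclease, and Satb1, a chromatin organizer, rose by 0.58 and 0.38. The Endou call ended without sort 2 or sort 4 (adjusted p = 0.075 and 0.10), and the Satb1 call ended whichever sort was left out (adjusted p 0.065 to 0.14). For Cd4 and Cd8a no untreated array gave a signal above background.

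Rag1, the recombinase subunit that cuts receptor loci, is the member of this list that links it to rearrangement. Its signal was 10.11, 9.91, 9.83 and 10.02 in DN3b and 10.73, 10.95, 10.48 and 10.55 in DN4, with no overlap. The rise was 1.64-fold (log2 change 0.71 ± 0.11 SE, limma adjusted p = 0.0067) and passed the threshold whichever sort was left out. Rag2, its partner, was at 0.44 ± 0.13 SE in 4 of 4 sorts above 0 without passing (limma adjusted p = 0.12). Of 14 tested genes for V(D)J recombination and end joining 1 rose (Rag1) and 1 fell (Poll), where 1.45% of all genes rose and 2.57% fell. Poll, a repair polymerase, had a log2 change of -0.38 (limma adjusted p = 0.045), and its call ended whichever sort was left out (adjusted p 0.089 to 0.21). Dntt, which adds untemplated bases at junctions, was at 0.05 ± 0.10 SE (limma adjusted p = 0.85). The 250 bases before the Rag1 start are shown because Rag1 rose with the DP-stage genes. Capitals mark the E-box letters CANNTG, bound by E proteins, which are known regulators in thymocytes. These letters occur 3 times here, and 66.2% of 32851 mouse windows of the same kind hold them at least once (RefSeq, GRCm38.p6, both strands searched).
Rag1, chr2:101649533-101649782, minus strand: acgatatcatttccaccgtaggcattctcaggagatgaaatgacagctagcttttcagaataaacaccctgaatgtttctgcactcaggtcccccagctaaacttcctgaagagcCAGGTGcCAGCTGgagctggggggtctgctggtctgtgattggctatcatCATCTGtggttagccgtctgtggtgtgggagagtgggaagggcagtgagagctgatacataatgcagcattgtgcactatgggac

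Among proximal signalling genes of the pre-TCR the members that passed the test rose. Of 23 tested genes in the list 3 rose and 0 fell, where 1.45% of all genes rose. The list's median change was 0.07, and 9 of the 23 lay below 0. Cd6, a scavenger-type receptor that modulates T cell receptor signals, was at 7.10, 7.14, 7.31 and 7.28 in DN3b and 8.22, 8.34, 8.80 and 8.32 in DN4. The groups did not overlap and the rise was 2.32-fold (limma adjusted p = 0.00065). Further Cd6 probes detected on 24 arrays gave 1.14 and 1.09 and passed, and one detected on 6 of 24 arrays gave -0.10. Sla, an adaptor that dampens receptor signalling, rose 1.70-fold with sorts between 0.65 and 0.87 (limma adjusted p = 0.0012). Zap70, the kinase recruited to the receptor, rose 1.34-fold (limma adjusted p = 0.024), and that call ended without sort 2, 3 or 4 (adjusted p = 0.13, 0.083 and 0.17).

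Of 18 tested genes that receptor signals switch on early 4 fell and 0 rose, where 2.57% of all genes fell. The list's median change was -0.08, with 6 of the 18 above 0 and the highest at 0.66. Cd69, an early activation receptor, was at 7.32, 6.95, 6.19 and 6.83 in DN3b and at 6.27, 5.91, 4.82 and 5.38 in DN4. Sort 3 was low in both groups, so the groups overlapped while the change within sorts stayed between -1.45 and -1.04 (2.34-fold lower, limma adjusted p = 0.0031). Jun, a subunit of the transcription factor AP-1, fell 1.95-fold (limma adjusted p = 0.002). Ier3, an immediate early gene, was at -1.04 with sorts from -1.71 to -0.38, and its call ended without sort 1, 3 or 4 (adjusted p = 0.087, 0.065 and 0.054). Dusp2, a phosphatase of MAP kinases, was 1.35-fold lower (limma adjusted p = 0.022), with adjusted p from 0.053 to 0.16 when any 1 sort was left out. Egr1, induced by the pre-TCR, was at 8.68, 8.52, 8.03 and 8.07 in DN3b and 8.13, 7.86, 6.66 and 7.60 in DN4. It was lower within 4 of 4 sorts and did not pass (log2 change -0.76 ± 0.19 SE, limma adjusted p = 0.054). Id3, an inhibitor of E proteins, was at -0.16 ± 0.11 SE (limma adjusted p = 0.47), and Cd5, whose level follows receptor signal strength, was above background on 1 of 4 arrays in each group.

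**Figure D3:**
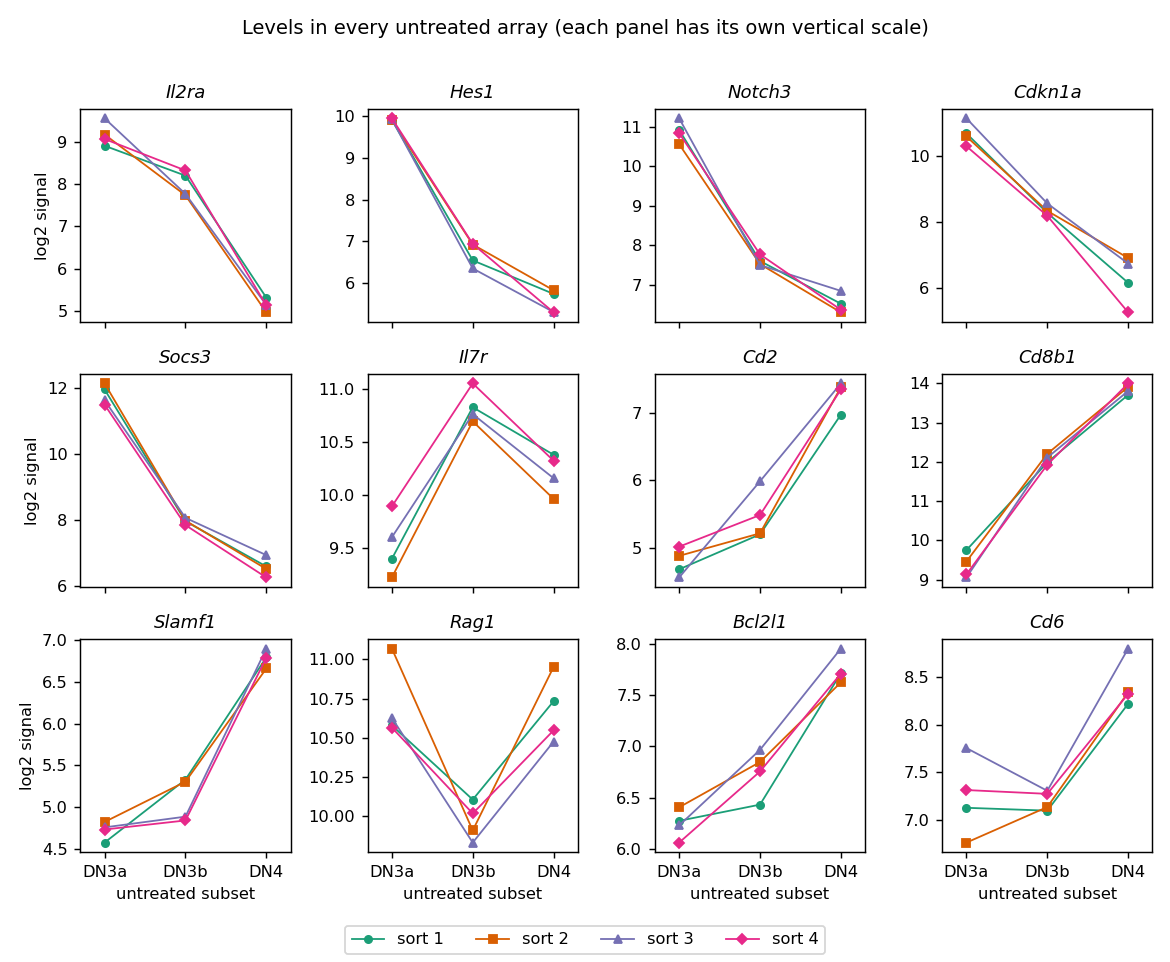
Log2 signal of 12 genes in every untreated array of DN3a, DN3b and DN4, with 1 line for each sort and a separate vertical scale for each panel. Hes1, Notch3, Cdkn1a and Socs3 were lowest in DN4, Cd2, Cd8b1, Slamf1 and Bcl2l1 were highest there, and Il7r and Rag1 had their highest and their lowest level in DN3b.

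The step from DN3a to DN3b shares the DN3b arrays with this comparison, so its values are given only side by side. In that step 4933 of the 8820 genes (55.9%) were called. Hes1 changed by -3.22 from DN3a to DN3b and by -1.14 from DN3b to DN4, Notch3 by -3.28 and -1.09, and Socs3 by -3.84 and -1.39. For these genes the earlier change was the larger one. Cd8b1 changed by 2.71 and 1.80, Pdlim4 by 3.32 and 1.26 and H2-Q2 by 2.68 and 1.23. For other genes the later change was the larger one. Il2ra changed by -1.17 and -2.86, Cd2 by 0.68 and 1.80 and Slamf1 by 0.37 and 1.69. Cd2 and Slamf1 had DN3b signals at or near background, which limits the reading of their earlier changes. Rag1 changed by -0.74 and 0.71, Il7r by 1.31 and -0.63, Gata3 by 0.70 and -0.48 and Tfrc by 0.79 and -0.74, so that the steps had opposite signs. Il2ra and Tfrc encode CD25 and CD71, so the later Il2ra fall and the earlier Tfrc rise were set by the sort gates.

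The other large rises were of genes with varied roles. Slfn1, a Schlafen family gene known to restrain thymocyte growth when overexpressed, rose 3.00-fold from 5.50, 5.43, 5.15 and 5.25 to 6.49, 7.05, 7.10 and 7.03 (limma adjusted p = 0.00024). It was the only 1 of 3 tested Schlafen genes to pass, where 1.45% of all genes rose. All 3 lay above 0, the lowest at 0.32. Limma gave each of the 3 an unadjusted p under 0.05, as it did 1551 of all 8820 genes. Gramd3, a GRAM domain protein, was above background on 1 of 4 DN3b arrays and 4 of 4 DN4 arrays and rose 2.82-fold. The orphan receptor gene Gpr162 and the tetraspanin gene Tspan32 were above background on 0 of 4 DN3b and 4 of 4 DN4 arrays. They were at least 1.85-fold and at least 1.76-fold higher in DN4 (limma adjusted p = 0.00043 and 0.001), bounds set against the lowest signal above background of each array. Pdlim4, an actin-associated adaptor, rose 2.40-fold with DN4 arrays between 9.06 and 9.80 and DN3b arrays between 7.54 and 8.61. H2-Q2, a class I-like gene whose probe may read near-identical family members, rose 2.34-fold. Fn3k, a kinase that repairs glycated proteins, Phlda1, a pleckstrin homology-like protein, and Syt13, of the synaptotagmin family, rose 2.11-, 2.04- and 2.04-fold. Phlda1 lost its call without sort 2 (adjusted p = 0.055). Syt13 rose by 0.25 in sort 3 and by 1.20 to 1.42 in the others, and its call ended without sort 1, 2 or 4 (adjusted p = 0.076, 0.085 and 0.097).

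The surface list reads across these groups. Of 32 tested coreceptor, costimulatory and SLAM genes 6 rose and 2 fell, where 1.45% of all genes rose and 2.57% fell. The list's median change was 0.03. Beside Cd2, Cd8b1, Slamf1 and Cd6, the tetraspanin gene Cd81 rose 1.68-fold with sorts between 0.70 and 0.84 (limma adjusted p = 0.0064, and 0.11 without the sort block). Icos, a costimulatory receptor, was at 6.06, 5.91, 5.88 and 5.71 in DN3b and 6.19, 6.72, 6.85 and 6.63 in DN4 (limma adjusted p = 0.023). Sort 1 showed little of that change, and the call ended without sort 2, 3 or 4 (adjusted p = 0.11, 0.10 and 0.17). Cd69 and the tetraspanin gene Cd53 fell, and the Cd53 call ended without sort 1, 2 or 4 (adjusted p = 0.11, 0.11 and 0.14). Cd27 and Cd28, costimulatory receptors, were at 0.09 and 0.29 without passing.

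The largest fall was in Scin, an actin-severing protein. Its signal was 10.66, 11.16, 9.63 and 10.75 in DN3b and 7.95, 7.95, 7.26 and 7.33 in DN4. Every DN4 array lay below every DN3b array, and the fall was 7.61-fold (log2 change -2.93 ± 0.16 SE, limma adjusted p = 4.3e-05). Ifitm2, an interferon-induced membrane protein, fell 3.35-fold with sorts between -2.09 and -1.57 (limma adjusted p = 6.2e-05). Itgb4, the integrin beta 4 chain, fell 3.26-fold and Myl10, a myosin light chain, 2.65-fold. Of the 7 tested chains in the integrin list, to which Itgb4 does not belong, 0 were called, where 4.02% of all genes were. An unadjusted limma p under 0.05 was seen for 1 of them and for 1551 of all 8820 genes. Rab44 and Sytl2, which act in vesicle traffic, fell 3.01- and 2.99-fold, and a dimmer second probe of Rab44, detected on 5 of 24 arrays, gave 0.0083. Golm1, a Golgi membrane protein, fell 2.50-fold.

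Of 8 tested genes of progenitors and alternative lineages 3 fell and 0 rose, where 2.57% of all genes fell. The list's median change was -0.42, and 1 of the 3 calls, that of Nfe2, held whichever sort was left out. Nfe2, a transcription factor of erythroid cells and megakaryocytes, was at 7.70, 8.33, 7.46 and 8.59 in DN3b and at 6.06, 6.00, 5.88 and 5.60 in DN4. The 4.39-fold fall (limma adjusted p = 0.00043) was deepest in sort 4, at -2.99, and least in sort 3, at -1.57. Cpa3, a carboxypeptidase of mast cells and early progenitors, was at 5.98, 7.20, 6.15 and 8.74 in DN3b and 5.52, 4.82, 5.10 and 4.71 in DN4. Its sorts spread from -4.02 to -0.46, and the call (adjusted p = 0.041) ended without sort 2, 3 or 4 (adjusted p = 0.21, 0.065 and 0.13). In the mast cell and basophil list the summed signal was 242 to 589 in DN3b and 216 to 241 in DN4, and Mcpt8, Gata2 and Ms4a2 were detected on 0 of the 8 arrays. Hdc of that list was detected on 8 of 8, at 6.23, 6.36, 6.09 and 6.09 in DN3b and 6.26, 6.54, 6.60 and 6.47 in DN4 (limma adjusted p = 0.16). The part of other cells in the Cpa3 fall was not tested. Mef2c, a transcription factor of progenitors and B cells, was at -0.57 (adjusted p = 0.034), a call that ended without sort 1, 2 or 4 (adjusted p = 0.13, 0.13 and 0.15).

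Of 13 tested gamma-delta and cytotoxic lineage genes 4 fell and 0 rose, where 2.57% of all genes fell, and the median change was -0.40. Nkg7, a membrane protein of cytotoxic granules, was at 7.58, 8.06, 7.75 and 8.55 in DN3b and 6.37, 5.99, 6.32 and 5.74 in DN4 (3.68-fold lower, limma adjusted p = 0.001). It is also in the NK and cytotoxic marker list, whose summed signal was 919 to 1090 in DN3b and 732 to 826 in DN4, with Ncr1 and Eomes on 0 of 8 arrays. Prf1 of that list was on 8 of 8, at 8.83 to 9.17 in DN3b and 8.81 to 9.06 in DN4, and Gzma on 2 arrays of each group. Cd163l1, a scavenger receptor of gamma-delta T cells, fell 1.93-fold, from 9.29, 9.21, 9.45 and 9.94 to 8.68, 8.44, 8.34 and 8.63 (limma adjusted p = 0.0024). Il17rb and Etv5 had changes of -0.58 and -0.56, with calls that ended without sort 2, 3 or 4 (adjusted p = 0.06, 0.062 and 0.11 for Il17rb, and 0.21, 0.12 and 0.27 for Etv5). The gamma-delta marker list, which shares Cd163l1, Il17rb and Etv5 with this group, had a summed signal of 1858 to 2900 in DN3b and 1410 to 1456 in DN4. On bulk arrays fewer cells of a type and less RNA per cell cannot be told apart. Sox13, a defining factor of some gamma-delta cells, was above background on 2 of 4 DN3b and 0 of 4 DN4 arrays, and Maf on 0 of 8.

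Of 21 tested lineage transcription factors 2 rose (Satb1, Nfatc3) and 2 fell (Nfatc1, Gata3), and 7 E protein and Id genes gave 1 fall, of Tcf4. Over all genes 1.45% rose and 2.57% fell. Each of these factors lost its call when some single sort was left out. Nfatc1, a calcium-regulated factor, fell 1.52-fold with sorts between -0.87 and -0.45 (limma adjusted p = 0.0064, and 0.067 and 0.059 without sort 2 or 4). Gata3, which T cells need from their earliest stage, was at 10.51, 10.61, 10.59 and 10.59 in DN3b and 10.19, 10.09, 10.18 and 9.91 in DN4. Its groups did not overlap, yet the call (limma adjusted p = 0.032) ended whichever sort was left out (adjusted p 0.058 to 0.17), as did those of Nfatc3 (0.13 to 0.17) and Tcf4 (0.056 to 0.11). Lef1, a high mobility group factor of thymocytes, was higher in 4 of 4 sorts without passing (log2 change 0.44 ± 0.12 SE, limma adjusted p = 0.078). No named probe stood for Tcf7.

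IL7 signals through its receptor chain IL7R, the shared gamma chain, JAK1, JAK3 and STAT5, and SOCS proteins limit such signals. Of 15 tested genes of this pathway 3 fell and 0 rose in these cultures without IL7, where 2.57% of all genes fell. Il7r was at 10.83, 10.70, 10.77 and 11.06 in DN3b and 10.38, 9.97, 10.16 and 10.33 in DN4. The groups did not overlap and the fall was 1.55-fold (log2 change -0.63 ± 0.10 SE, limma adjusted p = 0.0062, and 0.064 and 0.057 without sort 2 or 4). Jak3 was at -0.44 ± 0.10 SE (limma adjusted p = 0.045, and 0.08 to 0.22 when any 1 sort was left out), and a dimmer probe of Jak3 gave 0.01. Socs3, a feedback inhibitor of cytokine receptors that STAT3 is known to induce, was at 7.95, 7.97, 8.06 and 7.84 in DN3b and at 6.58, 6.51, 6.93 and 6.25 in DN4. The fall was 2.62-fold (log2 change -1.39 ± 0.13 SE, limma adjusted p = 0.00047), with sorts between -1.58 and -1.13. Its window before the start is shown as the largest fall of the pathway, with the STAT letters TTCNNNGAA in capitals. They occur once here, and 7.02% of the mouse windows hold them.
Socs3, chr11:117969367-117969616, minus strand: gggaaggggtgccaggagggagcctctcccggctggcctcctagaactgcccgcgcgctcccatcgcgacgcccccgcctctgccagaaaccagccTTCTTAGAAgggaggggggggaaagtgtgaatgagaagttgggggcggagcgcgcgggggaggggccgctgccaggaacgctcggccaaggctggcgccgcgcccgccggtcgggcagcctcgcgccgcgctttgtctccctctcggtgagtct

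Of 13 tested BCL2 family genes 1 rose and 2 fell, where 1.45% of all genes rose and 2.57% fell. Bcl2l1, which encodes the survival protein BCL-XL known to protect DP thymocytes, was at 6.43, 6.85, 6.97 and 6.76 in DN3b and at 7.72, 7.63, 7.96 and 7.71 in DN4. It rose by 1.00 ± 0.11 SE on the log2 scale (limma adjusted p = 0.001), and the call held whichever sort was left out. Bcl2l11, the pro-apoptotic gene for BIM, fell 1.51-fold (limma adjusted p = 0.0035, and 0.056 without sort 4). Bcl2l2 was at -0.40, a call that ended whichever sort was left out (adjusted p 0.072 to 0.24). Bcl2, the other main survival gene of T cells, was at 6.51, 6.34, 6.58 and 6.24 in DN3b and 6.32, 5.52, 5.52 and 5.73 in DN4. Sort 1 of DN4 overlapped with DN3b, and the change did not pass (-0.64 ± 0.19 SE, limma adjusted p = 0.098).

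Among 13 caspases and death receptors 1 rose and 1 fell, where 1.45% of all genes rose and 2.57% fell. Fas, the death receptor, rose 2.15-fold from 7.66, 7.90, 7.91 and 7.36 to 8.73, 8.69, 9.23 and 8.60 (limma adjusted p = 0.0017). Casp1, the caspase that matures inflammatory cytokines, fell 3.53-fold from 8.27, 8.57, 8.59 and 8.96 to 6.81, 6.58, 6.74 and 6.98 (limma adjusted p = 9.2e-05). Neither pair of groups overlapped.

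Calls among cell cycle genes were of regulators of entry into the cycle. Ccnd2, a D cyclin, was at 8.38, 8.13, 8.22 and 8.12 in DN3b and at 7.18, 6.98, 7.05 and 6.59 in DN4 (2.40-fold lower, limma adjusted p = 0.0011). Together with Cdkn1a it made 2 falls among 17 tested D cyclins, their kinases and inhibitors, beside 1 rise, of Rb1. Over all genes 2.57% fell and 1.45% rose. Rb1, the retinoblastoma gene, was at 0.39 (limma adjusted p = 0.044), and its call ended whichever sort was left out (adjusted p 0.10 to 0.20). Ccnd3, the D cyclin that pre-TCR driven growth requires, was at 0.22 ± 0.10 SE and Cdkn1b at 0.26 ± 0.13 SE, and neither passed (limma adjusted p = 0.27 and 0.37). A dimmer Ccnd3 probe gave 0.49 and passed (adjusted p over probes 0.030). In either direction 4.02% of all genes were called. An unadjusted limma p under 0.05 was found for 1551 of all 8820 genes. Of 39 DNA replication genes 0 were called, with 3 at an unadjusted p under 0.05. Of 26 G2/M and mitosis genes 0 were called, with 1 at an unadjusted p under 0.05. Their median changes were 0.04 and 0.06, and single genes lay between -0.24 and 0.29 and between -0.29 and 0.41. In the step from DN3a to DN3b, where 24.9% of all genes rose, 38 of the 39 and 25 of the 26 were higher.

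The metabolic and housekeeping lists gave few calls, where 4.02% of all genes were called. At that share lists of this size would hold few calls. No gene was called among 24 ribosome biogenesis factors, 29 ribosomal proteins, 18 glycolysis genes, 31 respiratory chain subunits, 26 nucleotide synthesis genes, 28 proteasome subunits or 10 chaperonins. At an unadjusted p under 0.05 limma gave 5, 2, 4, 1, 4, 0 and 1 of them, beside 1551 of all 8820 genes. The ribosome biogenesis list had a median of -0.13, with 19 of 24 genes below 0, and the medians of the other lists in this group lay between -0.02 and 0.04. Of 23 sterol and fatty acid synthesis genes 1 fell, Hmgcs1, an enzyme of the mevalonate pathway (-0.36, limma adjusted p = 0.034), and its call ended whichever sort was left out (adjusted p 0.068 to 0.19). Limma gave 10 of these 23 genes an unadjusted p under 0.05. Dnmt3b, a DNA methyltransferase, was the 1 call among 15 DNA methylation and Polycomb genes and fell 1.53-fold (limma adjusted p = 0.0023), although a dimmer second probe gave 0.0052.

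**Figure D4:**
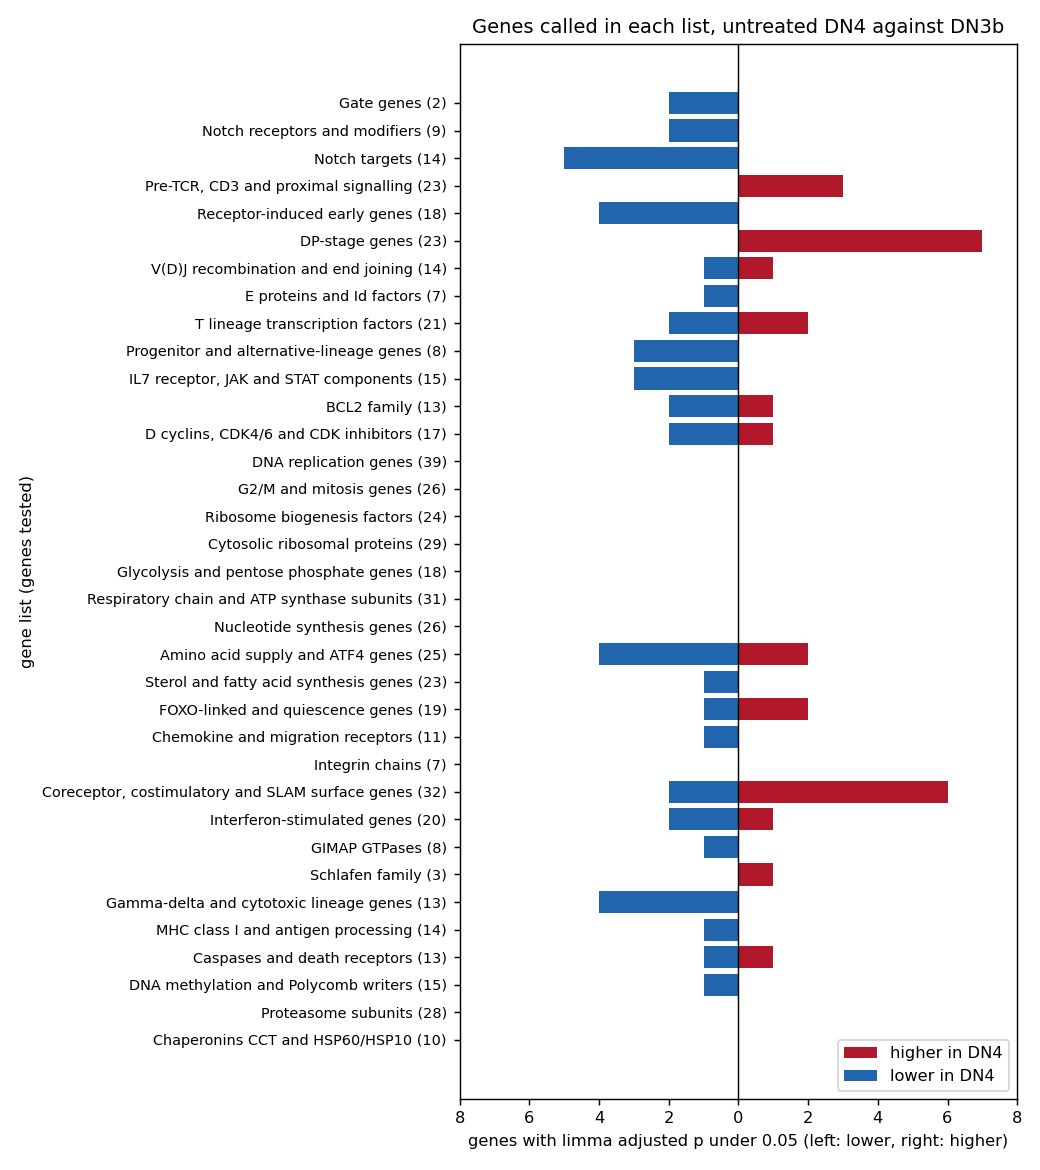
Number of genes in each of the 35 lists that were lower (left) or higher (right) in untreated DN4 than in untreated DN3b at a limma adjusted p under 0.05, with the number tested in brackets. The DP-stage list had 7 rises and 0 falls, and the Notch target list 5 falls, the gate gene Il2ra included, and 0 rises. The replication, mitosis, ribosome and proteasome lists had 0 calls. Over all genes 2.57% were lower and 1.45% higher.

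Genes of amino acid supply and of ATF4, the transcription factor of the amino acid response, gave the most calls among the metabolic lists. Of 25 tested 4 fell and 2 rose, where 2.57% of all genes fell and 1.45% rose. Of the 25 changes 20 were below 0 (median -0.20). Each of the 6 calls ended when some single sort was left out. Chac1, which degrades glutathione, was at 9.34, 8.73, 8.38 and 8.99 in DN3b and at 8.19, 7.87, 7.50 and 8.07 in DN4. The groups did not overlap and the fall was 1.94-fold (limma adjusted p = 0.0081, 0.20 without the sort block, and 0.059 and 0.084 without sort 2 or 4). Trib3, a pseudokinase, fell by 0.52 and Ddit3, the stress factor CHOP, by 0.30 on the log2 scale, and both calls ended whichever sort was left out (adjusted p 0.067 to 0.16 for Trib3 and 0.13 to 0.24 for Ddit3). Vldlr, a lipoprotein receptor, was at -0.82 with sorts from -1.58 to -0.12, and its call ended without sort 1, 2 or 4 (adjusted p = 0.14, 0.15 and 0.21). Slc7a11, the cystine transporter and also an ATF4 target, moved the other way, from 7.82, 7.33, 7.54 and 6.66 to 7.87, 8.06, 8.30 and 7.56. Sort 1 changed by 0.05 and the others by 0.73 to 0.90 (limma adjusted p = 0.029, and 0.17, 0.11 and 0.19 without sort 2, 3 or 4). Ddit4, an inhibitor of mTORC1 that is also counted among FOXO-linked genes, rose by 0.39 (limma adjusted p = 0.031, and 0.091 to 0.15 when any 1 sort was left out).

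The windows of Chac1 and Slc7a11 are shown since these ATF4 targets changed in opposite directions. Capitals mark the composite ATF4 and CEBP letters TGATGNAA on either strand. The Chac1 window holds them once and the Slc7a11 window 2 times, where 3.45% of mouse windows hold them at least once. The matches are a description of these letters only.
Chac1, chr2:119350992-119351241, plus strand: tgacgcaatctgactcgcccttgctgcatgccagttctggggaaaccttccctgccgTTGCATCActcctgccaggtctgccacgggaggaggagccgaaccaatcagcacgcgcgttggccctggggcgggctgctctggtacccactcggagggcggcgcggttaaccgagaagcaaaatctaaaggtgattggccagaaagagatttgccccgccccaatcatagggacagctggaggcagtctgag
Slc7a11, chr3:50443614-50443863, minus strand: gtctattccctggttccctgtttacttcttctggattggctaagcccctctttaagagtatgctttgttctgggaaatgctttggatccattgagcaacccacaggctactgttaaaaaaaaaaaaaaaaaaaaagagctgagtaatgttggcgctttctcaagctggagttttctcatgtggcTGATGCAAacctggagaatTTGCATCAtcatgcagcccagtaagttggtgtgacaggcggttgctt

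The next 5 lists gave 1 to 3 calls each, where 1.45% of all genes rose and 2.57% fell. Among 19 FOXO-linked genes Ddit4 and Sesn1, a stress-induced inhibitor of mTORC1, rose and Il7r fell. The Sesn1 call (0.39, limma adjusted p = 0.039) ended whichever sort was left out (adjusted p 0.08 to 0.16). Of 20 interferon-stimulated genes 1 rose and 2 fell. Oasl2, of the oligoadenylate synthetase family, was at 7.55, 7.14, 6.73 and 6.98 in DN3b and 6.39, 6.09, 5.77 and 5.50 in DN4 (2.24-fold lower, limma adjusted p = 0.00025). Parp14 was at -0.39 and Ifit2 at 0.44, with calls that ended whichever sort was left out for Parp14 (adjusted p 0.053 to 0.20) and without sort 1, 2 or 4 for Ifit2 (adjusted p = 0.10, 0.23 and 0.23). Nlrc5, an activator of MHC class I genes, fell 1.82-fold (limma adjusted p = 0.011, and 0.053 and 0.054 without sort 2 or 3), the 1 call among 14 MHC class I and antigen processing genes. Gimap1, 1 of 8 GTPases of the GIMAP family, and P2ry14, a nucleotide-sugar receptor among 11 chemokine and migration receptors, were the only calls of their lists. In the GIMAP list 6 of 8 changes were below 0 (median -0.26), and in the migration list 8 of 11 (median -0.16). Gimap1 fell by 0.39 (limma adjusted p = 0.012) and lost its call without sort 1, 2 or 4 (adjusted p = 0.076, 0.10 and 0.10), and P2ry14 fell by 0.52 (limma adjusted p = 0.034) and lost it whichever sort was left out (adjusted p 0.067 to 0.18).

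The same step was then read in the cultures of the same sorts with IL7, which are different arrays. There 532 of 8820 genes (6.03%) were called, 215 (2.44%) higher and 317 (3.59%) lower in DN4. Of the 355 untreated calls 332 had the same sign with IL7. Called in both with the same direction were 207 genes, which is 58.3% of the untreated and 38.9% of the IL7 calls. Scin changed by -2.93 untreated and -2.13 with IL7, Cd8b1 by 1.80 and 2.14, Rag1 by 0.71 and 0.63, Hes1 by -1.14 and -1.63 and Bcl2l1 by 1.00 and 0.74. These genes passed the test in both kinds of culture.

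The difference between the steps was tested itself. Of 8820 genes 27 (0.306%) were called, 6 with a higher and 21 with a lower change in the presence of IL7, and 835 had an unadjusted p under 0.05. Leaving out sort 1, 2, 3 or 4 gave 16, 5, 15 and 18 calls. The 5 largest differences on the lower side were of genes that did not pass the test without IL7. Il18r1, a receptor chain for IL18, changed by 0.08 untreated, where its probe was detected on 0 of 8 arrays, and by -3.12 with IL7. Socs2, a cytokine-induced feedback inhibitor, changed by -0.22 and -2.28, also with 0 of 8 untreated arrays above background. Rab38, a GTPase of vesicle traffic, was above background in DN3b with IL7 and on 0 of the other DN3b and DN4 arrays, at 6.96, 7.20, 6.69 and 7.72. Nav1, a neuronal navigator gene, changed by 0.03 and -1.80, and Ifitm3, of the same family as Ifitm2, by 0.06 and -1.72. Bcl6, a transcriptional repressor, changed by 0.18 ± 0.10 SE untreated (limma adjusted p = 0.38) and by 1.24 with IL7 (adjusted p of the difference = 0.0039).

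Among the untreated calls 5 also differed in this test, namely Muc13, Akr1c12, Actn2, Prag1 and Lypd6b, of which the first and second were named after their values were seen. Actn2, an actin cross-linker, was at 8.81, 8.93, 9.17 and 9.43 in untreated DN3b and 8.44, 8.45, 8.91 and 8.70 in untreated DN4. It fell by 0.46 without IL7 and rose by 0.44 with it (adjusted p of the difference = 0.037). Prag1 and Lypd6b changed by -0.60 and -0.66 untreated and by 0.40 and 0.36 with IL7, where neither passed. Their untreated falls lost the call without sort 2 or 4 (adjusted p = 0.059 and 0.050 for Prag1, and 0.052 and 0.10 for Lypd6b), and that of Actn2 without sort 1, 2 or 4 (adjusted p = 0.075, 0.12 and 0.13). The differences of Actn2, Prag1 and Lypd6b, and that of Nrp1 (-0.07 untreated and 0.68 with IL7), were lost whichever sort was left out (adjusted p 0.053 to 0.26). Without sort 2 the differences of Nav1, Ifitm3, Il18r1 and Bcl6 had adjusted p from 0.066 to 0.11, and that of Bcl6 was 0.10 without sort 4. Muc13, a membrane mucin, and Akr1c12, an aldo-keto reductase, were lower in both kinds of culture, with Muc13 at -1.09 untreated and -2.45 with IL7 and Akr1c12 at -1.24 and -2.40. The Akr1c12 probe may read near-identical relatives. Il7r changed by -0.63 untreated and -0.07 with IL7, and this difference did not pass (adjusted p = 0.53).

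**Figure D5:**
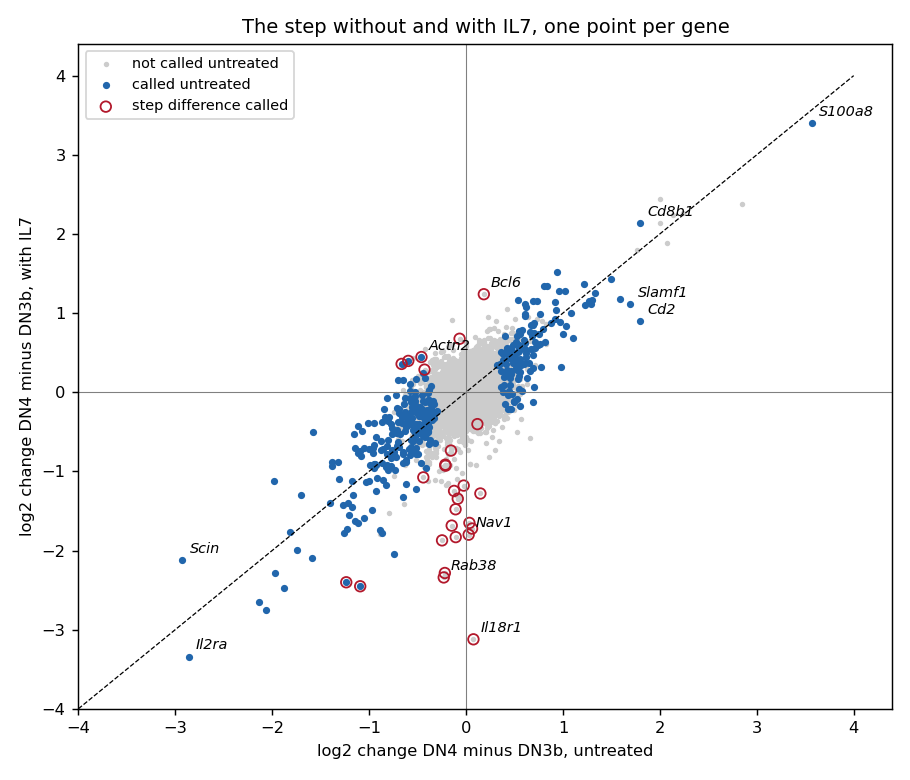
Log2 change from DN3b to DN4 without IL7 (horizontal) and with IL7 (vertical), with 1 point for each of the 8820 genes and a dashed line where the changes are equal. Genes called without IL7 are blue and the 27 genes whose steps differed have red rings, with Il18r1 at 0.08 and -3.12 and Actn2 at -0.46 and 0.44.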

How the data were processed

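RNA of 24 cultures was measured on Illumina mouse Ref8v2 beadchips. The deposited scanner table holds, per the file headers, a linear intensity and a detection p-value for each of 25697 probes and array. The authors also deposited log2 values, whose 24 columns share a median of 6.734. Each matches its own array best and lies within 0.084 of the log2 of the quantile-normalized intensities, so its scale and direction are known and no centring is visible. Per the series' design text the authors subtracted background, which these values do not show. The tools named are GenomeStudio 2011.1, per the submitters' processing notes, and R Bioconductor 2.13.0, per the design text.

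The intensities were normalized with neqc (limma 3.58.1, R 4.3.3, detection p-values for the background, offset 16), which compresses changes of dim probes. Median intensity was 93.3 to 119.8 per array, 10940 to 11660 probes per array were detected (p under 0.05), and the number of arrays limits precision. Probes detected on at least 4 arrays were kept, 12939 in all and 12158 of them named. Of all probes 23978 had 1 symbol, 0 several and 1719 none, and 23962 were named through a gene identifier. The brightest probe stood for each of 8820 genes, of which 2348 had more than 1. Among further probes of named genes 31 led to the same call, 23 led to another call and 6 had the opposite sign.

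limma (lmFit, eBayes, two-sided) was fitted on the 12 untreated arrays, DN3a included, with the sort as a block. The IL7 step used the 12 IL7 arrays in the same way, and the difference of the steps all 24 arrays, blocked by the 12 pairs of cultures. P-values were adjusted over 8820 genes (Benjamini-Hochberg, threshold 0.05). In simulated data for the untreated comparison (8820 genes), 92% of 100 genes changed by 1 on the log2 scale were recovered and 54% of 100 genes changed by 0.5.

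The sort numbers pair the arrays because the labels give 4 independent sorts. Deviations of same-sort arrays correlated at 0.173 or more (median 0.362) and those of other sorts at a median of -0.079. Within groups arrays correlated at 0.976 to 0.992, and 0 pairs were identical. Settings tried were the block, the arrays in the fit, background correction, normalization, the filter and probe choice, moderation and the sorts left out.

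Named genes are the 15 largest rises and 15 largest falls past the threshold that moved alike in 4 sorts (clone names passed over), up to 8 called members of each of 35 lists, genes considered whatever their values, and the 5 largest differences of the step on each side. The lists, and 12 marker lists, were chosen with earlier results of these data known. Promoter windows are the 250 bases before a start (RefSeq, GRCm38.p6), and 73 of 104 named genes matched. Some of the genes chosen by these rules are not reported here.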

Additional observations from a re-analysis of the deposited data

Results flagged for a closer look

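Among 104 named genes, 4 had 1 sort far from the other sorts in the within-sort change from untreated DN3b to untreated DN4. Chance flags about 1 in 20 such groups. Ccnd2 changed by -1.53 in sort 4 and by -1.20 to -1.16 in the others. Mef2c changed by -0.86 in sort 4, against -0.50 to -0.43. Cd8b1 changed by 2.07 in sort 4, against 1.70 to 1.72. Hmgcs1 changed least in sort 3, by -0.24, against -0.40 to -0.39.

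The change from DN3b to DN4 differed between cultures with and without IL7 for 10 named genes, by the limma test of the difference. With IL7 the change was higher by 1.05 for Bcl6, 1.02 for Lypd6b, 0.99 for Prag1, 0.90 for Actn2 and 0.74 for Nrp1. The value for Il18r1 was -3.20, for Rab38 -2.11, for Socs2 -2.07, for Nav1 -1.83 and for Ifitm3 -1.78. Of these 10, Rab38 and Socs2 kept the call whichever sort was left out.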

How the results depend on the processing

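The direction of the changes held and their number did not. In each of 17 alternative settings at least 354 of the 355 genes had their sign where they were measured (338 of 338 under the stricter filter on dim probes). Against 355 calls there were 166 without the replicate block, 231 from the 8 DN3b and DN4 arrays alone, 558 without background correction (226 higher, 332 lower), 566 from the authors' processed values, 567 with trend and robust moderation, 34 leaving out sorts 2 and 3 and 66 leaving out sorts 1 and 3. The paired test without moderation called 1, with 1408 at an unadjusted p under 0.05. Leaving out 1 sort gave 110 to 225. Calls under cyclic loess (370), median scaling (292), no filter (297), the stricter filter (452) and the probe with the highest F (405) lay within 1.5 times. Of 82 called named genes 52 passed without the block, 0 in the paired test, 23 without sorts 2 and 3, 27 without sorts 1 and 3 and 42 to 56 without 1 sort, and 40 kept the call in each of the 4 omissions. For the 62 calls in lists these counts were 35, 0, 14, 15 and 27 to 41. Calls of the IL7 step went from 532 to 277 without the block, 801 with the authors' values and 208 to 387 without 1 sort. Step differences went from 27 to 16 without the block, 99 without background correction, 105 with the authors' values and 5 to 18 without 1 sort. The causes were not tested. Leaving out sorts 2 and 3 leaves 2 sorts a group.

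Signs turned for 8 genes, all of them uncalled. Myc was at -0.0077 without background correction, -0.0081 in the authors' values, -0.090 to 0.070 without 1 sort (negative without sort 1 or 2) and -0.040 without sorts 1 and 3. Nav1 was at -0.0026, -0.0029 and -0.029 (the last under cyclic loess), -0.050 to 0.14 without 1 sort (negative without sort 1 or 3), -0.089 without sorts 2 and 3 and -0.14 without sorts 1 and 3. Ifitm3 was at -0.12 to 0.18 without 1 sort (negative without sort 3), -0.23 without sorts 2 and 3 and -0.043 without sorts 1 and 3. Dntt was at -0.0024 to 0.098 without 1 sort (negative without sort 1) and -0.068 without sorts 1 and 3, and Cd5 at -0.19 to 0.052 without 1 sort (positive without sort 2 or 4). Notch1 was at 0.016 without sorts 2 and 3, and Dtx1 and Id3 at 0.020 and 0.034 without sorts 1 and 3.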

Other observations

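Histone genes, a group chosen after the values were seen, leaned upwards in untreated DN4. Of 44 tested 9 rose and 0 fell, where 1.45% of all genes rose, and 40 lay above 0, with a median of 0.26 and a range of -0.23 to 0.77. The rises were between 0.42 and 0.77, and 6 of 10 genes for histone H4 were among them. In the cultures with IL7 7 histone genes rose (median 0.23). From DN3a to DN3b the 9 genes had changed by 1.04 to 2.98, in a comparison that shares the DN3b arrays. Probes of these genes may read near-identical family members.

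The genes of this paragraph and the next were picked because they passed the test, from no fixed list, and carry no count. Btk, a kinase of B cell receptor signalling, was above background on 3 of 4 DN3b and 0 of 4 DN4 arrays and was at least 1.28-fold lower (limma adjusted p = 0.038). Plcg2, the phospholipase downstream of it, was at 8.88, 9.09, 8.26 and 8.70 in DN3b and 8.19, 8.26, 7.72 and 7.78 in DN4 (limma adjusted p = 0.0051). Rasgrp3, an activator of Ras, fell by 1.22 on the log2 scale (limma adjusted p = 0.0045). Unc93b1, a chaperone of endosomal Toll-like receptors, and Tlr6 fell by 1.14 and 1.11 (limma adjusted p = 0.0012 and 0.0011). Pld4, a nuclease of plasmacytoid dendritic cells and B cells, fell by 1.20 (limma adjusted p = 0.0026). Not all genes picked this way fell. Apoe and Cnr2 rose by 0.98 and 0.97 (limma adjusted p = 0.0045 and 0.0032), and Cnr2 was above background on 1 of 4 DN3b arrays. The B cell marker sums were 640 to 805 in DN3b and 564 to 653 in DN4, with Cd79a and Pax5 on 0 of 8 arrays, Cd79b on 8 of 8 at 8.49 to 9.18, Vpreb1 on 3 DN3b and 2 DN4 arrays and Ms4a1 on 2 of each group. The dendritic sums were 819 to 1011 and 810 to 963. The part of other cells in these changes was not tested.

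Dtx4, of the Deltex family of Notch modifiers, was at 6.32, 6.60, 6.25 and 6.18 in DN3b and 5.29, 5.25, 5.46 and 5.12 in DN4 (limma adjusted p = 0.00071). It belonged to no list here. Sh2d1a, the adaptor SAP that binds SLAM family receptors such as Slamf1, rose from 11.69, 11.80, 11.82 and 11.79 to 12.35, 12.36, 12.48 and 12.36 (limma adjusted p = 0.0016). The groups did not overlap for either gene.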
